A study of Mus musculus with 132 samples.

Results

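The 36 genes described here build, color and feed a red blood cell. They were chosen by name as erythroid membrane, heme and iron genes: 7 of the membrane skeleton, 7 of membrane transport and blood groups, 9 of heme synthesis, 3 of iron uptake, 3 that encode a receptor and transcription factors, 4 of red cell metabolism and gas exchange, and 3 of maturation and ubiquitin. All 36 were found among the 25146 genes of the count table. Their levels were measured by poly(A)-minus RNA-seq, which reads RNA without a poly(A) tail and so much unspliced transcript, in 23 libraries of a mouse embryonic stem cell (mESC) differentiation toward blood. Counts covered exons and introns together.

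The cells were E14-TG2a mESCs, a line from 129 mice. WT_Undiff libraries (n = 2, day 0) came from undifferentiated cells and were labelled technical replicates of 1 culture. Flk1 libraries (day 4) came from Flk1+ mesoderm sorted after BMP4, with bFGF and Activin A from day 3: WT_Flk1 (n = 3, from clone B9.3, clone C6.1 and clone C8.1), P1-CTCF-KO_Flk1 (n = 3, clones E7.1, E7.2 and E9.1) and P2-CTCF-KO_Flk1 (n = 3, clones D10.1, D2.1 and E9.1). CD41 libraries (day 7) came from hematopoietic progenitor cells (HPCs) that were CD41+ CD45- and Ter119-negative, after SCF and VEGF: WT_CD41 (n = 4), P1-CTCF-KO_CD41 (n = 3) and P2-CTCF-KO_CD41 (n = 5). WT clone B9.3 and P2-CTCF-KO clones D2.1 and D10.1 each gave a second HPC library, named B9.3-2, D2.1-2 and D10.1-2, and the labels do not say whether it was a second culture. A P1-CTCF-KO or P2-CTCF-KO clone lacks the CTCF site near the P1 or the P2 promoter of Runx1, the gene of a transcription factor needed for blood formation; each is a CRISPR-Cas9 clone, and the E9.1 clones of the KO lines are different cells. No coding sequence was deleted, so no gene's count checks the genotype. The Ter119 gate removes erythroid cells that already carry that antigen, which limits the HPCs as a model of red cell formation.

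Red cells form as a progenitor switches on a shared set of genes under GATA1, KLF1 and the erythropoietin receptor. The membrane skeleton is a net of spectrin tied by ankyrin and protein 4.1 to membrane proteins such as band 3, and defects in it deform red cells. Heme is built stepwise from glycine and succinyl-CoA, partly in mitochondria, and iron enters the cell by the transferrin receptor before ferrochelatase inserts it into the ring.

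Values are CPM (counts scaled to a common library size) on 1 scale over all 23 libraries. The size of a library was its total count times a TMM factor, which adjusts for its makeup. That factor was 6.946 and 4.591 in the WT_Undiff libraries and 0.3816 to 1.278 in the others. Levels in undifferentiated cells against the other stages thus depend on this scaling. A library held 20532578 to 24283287 counts for undifferentiated cells, 18233679 to 24406998 for mesoderm and 7805102 to 13513677 for HPCs. Most of them (68.1 to 91%) fell in entries for repeated loci or ribosomal RNA, so 878966 to 7748566 counts per library were left for other genes and 332 to 9200 for the 36 genes. 1 count was then worth about 0.1 CPM in an HPC library, and a gene at 0 was not detected at that depth. It was worth 0.0596 to 0.121 CPM in a WT mesoderm library but only 0.00593 and 0.0106 CPM in the WT_Undiff libraries. The pluripotency markers summed to 50.8 and 54.7 CPM in undifferentiated cells and to at most 8.89 CPM elsewhere, the early mesoderm markers to 28.3 to 116 CPM in mesoderm, and Itga2b, which encodes CD41, averaged 28.0 ± 11.5 CPM (SD) in WT HPCs against 0.930 ± 0.393 CPM in WT mesoderm. 1 HPC library, P2-CTCF-KO D2.1, stood apart: its endothelial markers summed to 88.4 CPM against 13.8 to 38.3 CPM in the other 11. Counts of members called in P2-CTCF-KO HPCs are given with and without it. In these bulk samples, fewer cells of a type and less RNA per cell cannot be told apart.

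The promoters of 4 genes that the HPC comparison turns on are shown first, 2 of the membrane skeleton (Epb41 and Sptb) and 2 of the red cell surface (Kel and Ermap), because their letters can be read beside the measured chromatin peaks. Each line is 300 bases of RefSeq sequence, GRCm38.p6, all from the minus strand and written 5′ to 3′: Epb41 at chr4:132075264-132075563, Sptb at chr12:76710498-76710797, Kel at chr6:41704276-41704575 and Ermap at chr4:119189946-119190245. Capitals mark the GATA word AGATAA with its variants AGATAG, which ends in G, TGATAA, which starts with T, and TGATAG, which does both, and the KLF-type word CCNCNCCC, all on either strand.
Epb41: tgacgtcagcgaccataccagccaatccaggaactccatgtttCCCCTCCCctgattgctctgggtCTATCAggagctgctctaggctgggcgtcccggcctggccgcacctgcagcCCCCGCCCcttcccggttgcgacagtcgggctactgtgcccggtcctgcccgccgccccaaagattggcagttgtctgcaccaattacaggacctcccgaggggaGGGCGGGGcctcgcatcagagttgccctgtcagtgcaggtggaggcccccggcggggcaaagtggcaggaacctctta
Sptb: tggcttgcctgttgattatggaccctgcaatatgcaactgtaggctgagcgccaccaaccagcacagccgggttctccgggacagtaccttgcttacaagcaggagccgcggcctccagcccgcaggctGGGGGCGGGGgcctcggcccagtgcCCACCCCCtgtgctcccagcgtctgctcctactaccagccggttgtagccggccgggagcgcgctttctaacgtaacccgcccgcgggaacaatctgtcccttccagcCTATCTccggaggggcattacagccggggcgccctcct
Kel: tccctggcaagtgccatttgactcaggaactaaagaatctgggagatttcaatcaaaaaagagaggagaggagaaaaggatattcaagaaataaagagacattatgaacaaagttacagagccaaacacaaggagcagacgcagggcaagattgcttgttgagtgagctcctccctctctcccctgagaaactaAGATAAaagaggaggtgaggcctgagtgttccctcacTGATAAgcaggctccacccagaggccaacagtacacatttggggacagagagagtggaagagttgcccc
Ermap: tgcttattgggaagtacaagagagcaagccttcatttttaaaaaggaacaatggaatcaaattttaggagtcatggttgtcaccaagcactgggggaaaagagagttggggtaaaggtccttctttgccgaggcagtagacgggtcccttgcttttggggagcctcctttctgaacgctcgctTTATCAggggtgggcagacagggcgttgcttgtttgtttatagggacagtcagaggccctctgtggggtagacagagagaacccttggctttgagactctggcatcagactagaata

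Epb41 held 1 GATA word, 184 to 179 bases before the start site of the count table, and 3 KLF-type words. Sptb held 1 GATA word, 12 to 17 bases after the start, and 3 KLF-type words, of which the first pair overlap. Kel held 2 GATA words, at 56 to 51 and 19 to 14 bases before the start, and Ermap held 1, at 67 to 62 bases before it. Among the 26 of the 36 genes matched to a RefSeq promoter, 15 (57.7%) held a GATA word, 19 (73.1%) a KLF-type word and 8 (30.8%) both. Among all 27025 promoters of that length the shares were 30.2%, 49.1% and 10.3%. A match is a description of letters and not a binding site.

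On this scale the members were low in undifferentiated cells and in mesoderm and high in HPCs. Their levels summed to 53.6 and 54.5 CPM in WT_Undiff, 40.2 to 43.3 CPM in WT_Flk1 and 279 to 419 CPM in WT_CD41. In the undifferentiated cells Tfrc (32.7%) and Xpo7 (24.2%) made up most of that sum, and in WT HPCs Epb41 (25.4%) and Sptb (16.7%) led it. From WT mesoderm to WT HPCs, 31 of the 32 members tested rose by more than 2-fold at an adjusted p under 0.05 and 0 fell, where 10.8% of the 12899 genes tested rose and 12.5% fell. The median log2 fold change of the 32 was 3.86, or 3.74 with the 6 genes at 0 in mesoderm set to their lower bound, against -0.00782 over all genes tested. Those 6 passed the count filter through their HPC counts and could only rise, so their direction was fixed in advance. Alas2, Ank1 and Rhd, near 0 in mesoderm, had almost no room to fall. Epb42, Klf1, Nfe2 and Epor, at 5 counts or fewer in every WT mesoderm library, had little room. All of these genes are among the 31, and no count of calls without them was made. Not every gene had this order of stages: Dmtn was highest in undifferentiated cells, Xpo7 was near level and Tspo2 was at 0, as the plot of levels in the wild-type libraries shows.

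**Figure D1:**
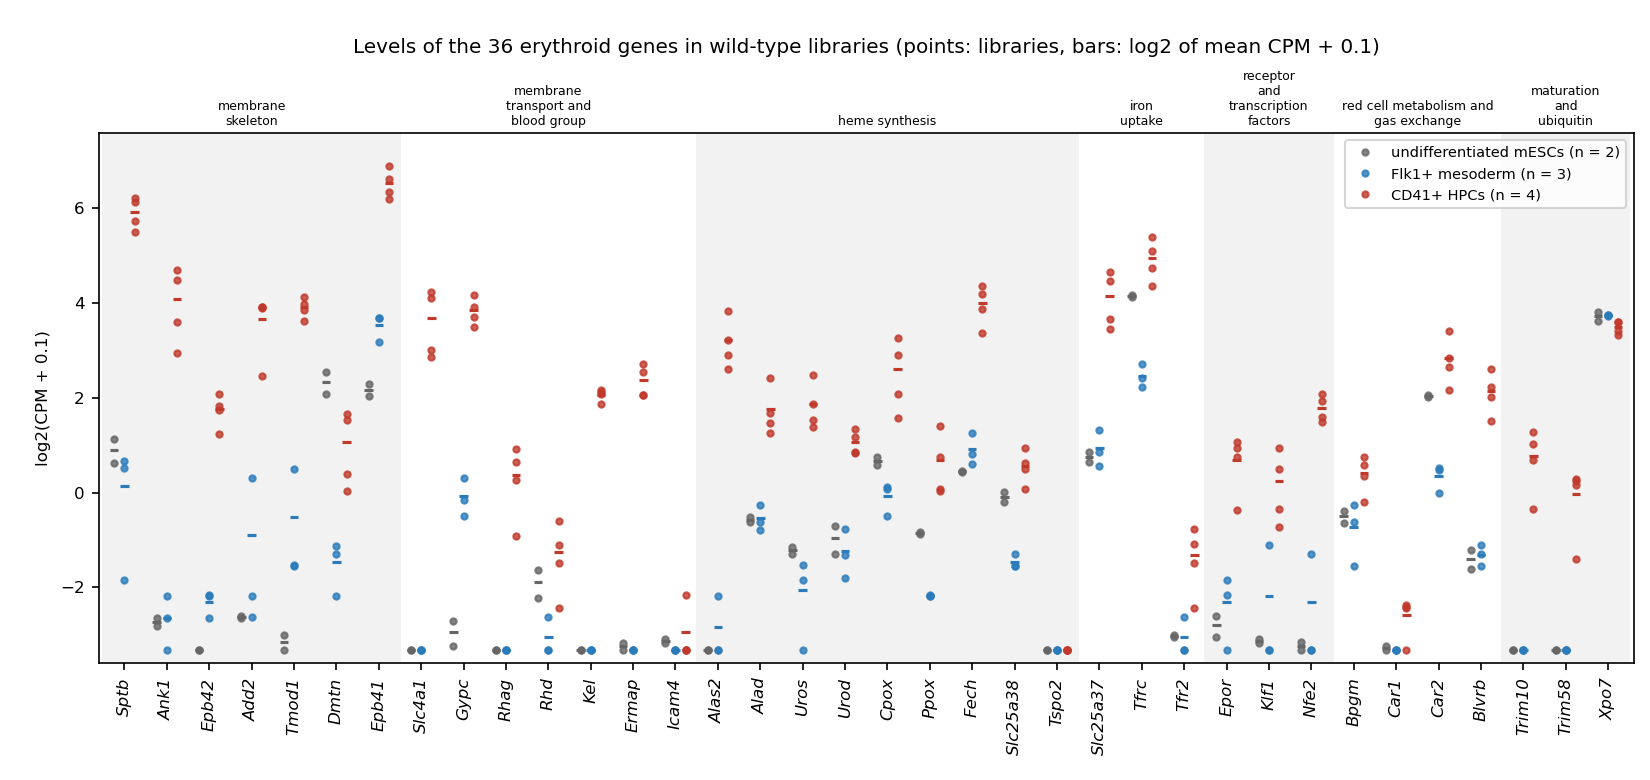
Level of each of the 36 genes in each wild-type library, as log2(CPM + 0.1), grouped by role, with undifferentiated cells in gray (n = 2), mesoderm in blue (n = 3) and HPCs in red (n = 4); bars mark the log2 of the group mean plus 0.1. The 31 genes that passed the test have their red points above all the blue points, a separation not counted over all genes. The Xpo7 points of all stages lie between 9.97 and 13.9 CPM.

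The membrane skeleton rose as a whole. All 7 of its members were higher in WT HPCs, with a median log2 fold change of 4.74, and Epb41 and Sptb gave the largest shares of the summed level. Epb41 (mm9 chr4:131479340-131631228, minus strand) encodes protein 4.1, which fixes spectrin and actin to the membrane. It measured 12.8, 8.96 and 12.8 CPM in WT mesoderm (B9.3, then C6.1, then C8.1) and 81.3, 73.1, 97.8 and 119 CPM in WT HPCs (B9.3, B9.3-2, C6.1, then C8.1); the same order of clones is kept for every gene that follows. The groups did not overlap, and the log2 fold change was 3.06 ± 0.242 (SE, edgeR adjusted p = 1.5e-05). Here and below, separation of groups is a description only, since it was not counted over all genes. Sptb (chr12:77681474-77811534, minus strand), the erythroid beta spectrin, measured 0.179, 1.33 and 1.48 CPM in mesoderm and 45.5, 70.0, 74.3 and 53.2 CPM in HPCs. Mesoderm clone B9.3 was the low library, all HPC libraries were far above, and the log2 fold change was 6.05 ± 0.539 (adjusted p = 2.5e-05). Ank1 (chr8:24085307-24260969, plus strand) encodes ankyrin, which links spectrin to band 3. It measured 0.0596, 0.121 and 0 CPM in mesoderm, which is 2 counts in all, and 12, 25.8, 22.4 and 7.59 CPM in HPCs. The groups were fully apart, with B9.3-2 and C6.1 the highest. The ratio of the counts was 331 (95% Poisson interval 91.4 to 2740, counting error only; edgeR adjusted p = 2.5e-05).

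The other members of the skeleton kept that order of stages. Tmod1, which caps actin filaments, went from 0.600 ± 0.616 CPM (SD, n = 3) to 14.9 ± 2.16 CPM (n = 4) and Add2, an adducin at the spectrin and actin junction, from 0.439 ± 0.602 to 12.6 ± 4.76 CPM. Epb42, protein 4.2, went from 0.101 ± 0.0361 to 3.27 ± 0.784 CPM and Dmtn, dematin, from 0.262 ± 0.125 to 1.99 ± 1.08 CPM. No HPC library of these 4 genes overlapped the mesoderm libraries. Tmod1 overlaps the opposite-strand gene Tstd2 by 1287 bases, and its counts may hold some of that gene's, since the strand setting is not given in the sources used here. Add2 and Ank1 lie inside the spans of same-strand entries for repeated loci, as do Klf1, Bpgm and Tspo2. How reads shared with such entries were assigned is not given, so the levels of these genes are uncertain too.

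Genes of the red cell surface went from almost nothing to clear levels. All 6 tested members of the transport and blood group role rose, and 4 of them (Slc4a1, Rhag, Kel and Ermap) had no count in any WT mesoderm library, so their folds are lower bounds set at 3 counts over the group. Kel (chr6:41636328-41654324, minus strand), the Kell blood group endopeptidase, was at 0 in the 3 mesoderm libraries and at 3.53, 4.25, 4.39 and 4.13 CPM in HPCs. Its 4 HPC libraries were nearly level, and it was at least 55.8-fold higher (adjusted p = 3.1e-05). Ermap (chr4:118848061-118862600, minus strand), the Scianna blood group protein, was likewise at 0 and then at 4.05, 5.71, 6.45 and 4.05 CPM. It was at least 68.4-fold higher (adjusted p = 4e-05), with no overlap. Gypc (chr18:32687973-32719688, minus strand) encodes glycophorin C, which anchors protein 4.1. It was already present in mesoderm at 1.13, 0.606 and 0.800 CPM and reached 15.1, 13.0, 11.2 and 17.9 CPM in HPCs, a log2 fold change of 4.08 ± 0.368 (adjusted p = 2.7e-05). These groups were also apart, with C8.1 the highest HPC library.

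Slc4a1, the band 3 anion exchanger, was at 12.8 ± 6.05 CPM in WT HPCs and at least 167-fold above mesoderm, and the ammonia channel gene Rhag was at 1.19 ± 0.578 CPM and at least 15.9-fold above. Rhd rose on few counts: 13 in the HPC libraries against 1 in mesoderm, a ratio of 12.7 (95% Poisson interval 1.90 to 538), with an edgeR adjusted p = 0.04. In the fit with the clone as a replicate block Rhd did not pass the count filter, so it was not tested there. Icam4, the Landsteiner-Wiener adhesion protein, had 1 count in WT HPCs and was not tested. Rhd and Icam4 thus stayed near the limit of detection while the other surface genes did not.

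Every tested step of heme synthesis was higher in HPCs. All 8 tested members rose, with a median log2 fold change of 3.03, and Alas2 had the largest fitted fold among them, on a single mesoderm count. Alas2 (chrX:146981959-147005165, plus strand), the erythroid 5-aminolevulinate synthase that starts the pathway, was at 0, 0.121 and 0 CPM in mesoderm, a single count, and at 6.03, 14.2, 7.38 and 9.19 CPM in HPCs. All HPC libraries were above, B9.3-2 being the highest, and the count ratio was 365 (95% Poisson interval 65.1 to 14500; edgeR adjusted p = 2.9e-05). Uros (chr7:140878037-140902130, minus strand), the synthase that closes the ring, measured 0.179, 0 and 0.246 CPM in mesoderm and 2.5, 5.47, 3.55 and 2.78 CPM in HPCs. Its groups did not overlap, and the log2 fold change was 4.45 ± 0.528 (adjusted p = 0.00012). Uros shares 1116 bases with the opposite-strand gene Bccip, so some of its counts are uncertain. Fech (chr18:64616195-64648752, minus strand), ferrochelatase, which puts iron into the ring, measured 1.67, 2.30 and 1.42 CPM in mesoderm and 10.2, 20.3, 18.3 and 14.5 CPM in HPCs. Its groups were apart, with a log2 fold change of 3.24 ± 0.311 (adjusted p = 3.5e-05).

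The other enzymes and the glycine carrier also rose, from a low level in mesoderm. Alad, the second enzyme, went from 0.586 ± 0.128 to 3.31 ± 1.32 CPM, Urod, which removes carboxyl groups from uroporphyrinogen, from 0.322 ± 0.151 to 2.00 ± 0.358 CPM, and Cpox, which acts next, from 0.848 ± 0.211 to 5.97 ± 3.02 CPM. Ppox, the step before Fech, went from 0.121 ± 0.00193 to 1.5 ± 0.764 CPM and Slc25a38, the mitochondrial glycine carrier, from 0.263 ± 0.039 to 1.38 ± 0.362 CPM. None of these 5 had overlapping groups, and their log2 fold changes ran from 2.40 (Slc25a38) to 3.63 (Ppox). Tspo2, a translocator protein of late erythroid cells, had no count in any of the 23 libraries. It lies whole inside the span of a repeated-locus entry, so its 0 is not read as absence of RNA.

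Iron genes rose from an expressed state. Tfrc (chr16:32608981-32632880, plus strand), the transferrin receptor, measured 4.59, 6.42 and 5.23 CPM in WT mesoderm and 20.5, 34.0, 42.1 and 26.5 CPM in WT HPCs, a log2 fold change of 2.58 ± 0.289 (edgeR adjusted p = 8.3e-05). HPC clone B9.3 was its lowest HPC library and still above all mesoderm libraries. Slc25a37 (chr14:69859907-69903160, minus strand), mitoferrin-1, which carries iron into the mitochondrion, measured 1.37, 1.70 and 2.40 CPM in mesoderm and 10.8, 22.0, 25 and 12.6 CPM in HPCs, a log2 fold change of 3.33 ± 0.376 (adjusted p = 8.7e-05). Its groups were apart too. Tfr2, the second transferrin receptor, was not tested: it had 12 counts in WT HPCs and 1 in WT mesoderm, a ratio of 11.7 (95% Poisson interval 1.73 to 499).

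The receptor and transcription factor genes were low throughout and higher in HPCs. Nfe2 (chr15:103078642-103088834, minus strand), a factor of erythroid and megakaryocyte genes, measured 0, 0 and 0.308 CPM in WT mesoderm and 3.70, 2.92, 2.71 and 4.13 CPM in WT HPCs, a log2 fold change of 4.84 ± 0.645 (adjusted p = 0.00026). Its mesoderm counts all came from C8.1, and the groups did not overlap. Epor (chr9:21763342-21768020, minus strand), the erythropoietin receptor, measured 0.179, 0 and 0.123 CPM and then 1.98, 1.82, 1.59 and 0.674 CPM, a log2 fold change of 3.69 ± 0.667 (adjusted p = 0.0018). HPC clone C8.1 was its low library. Klf1 (chr8:87425880-87429188, plus strand), a master regulator of red cell genes, measured 0, 0.363 and 0 CPM and then 0.689, 1.82, 1.31 and 0.506 CPM. Its groups were apart by little, the count ratio was 13.9 (95% Poisson interval 4.46 to 70.3) and the edgeR adjusted p = 0.012, which became 0.053 without mesoderm clone C8.1.

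The metabolic genes ran from a clear rise to a single count per library. Blvrb (chr7:28232996-28251000, plus strand), biliverdin reductase B, measured 0.239, 0.363 and 0.308 CPM in WT mesoderm and 2.75, 5.96, 4.58 and 3.96 CPM in WT HPCs, a log2 fold change of 3.92 ± 0.412 (adjusted p = 5.5e-05). Car2 (chr3:14886268-14900770, plus strand), carbonic anhydrase 2, measured 0.894, 1.33 and 1.29 CPM and then 4.39, 10.6, 7.1 and 6.15 CPM, a log2 fold change of 2.66 ± 0.345 (adjusted p = 0.00021). Both had groups apart. Bpgm (chr6:34426355-34455136, plus strand), which makes the hemoglobin effector bisphosphoglycerate, measured 0.239, 0.727 and 0.554 CPM and then 0.775, 1.58, 1.40 and 1.18 CPM. Its groups nearly touched, at 0.727 and 0.775 CPM, and its log2 fold change of 1.42 ± 0.451 had an edgeR adjusted p = 0.036, or 0.086 with the clone as a replicate block. The adjusted p was also 0.062 to 0.13 when any of mesoderm clones B9.3 and C8.1 or HPC libraries B9.3-2, C6.1 and C8.1 was left out. Car1, carbonic anhydrase 1, had 3 counts in WT HPCs and was not tested.

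In the maturation role the ubiquitin ligase genes were counted in HPCs and in no WT mesoderm library, and Xpo7 was the 1 tested member not called. Trim10 (chr17:37006518-37014778, plus strand) had no mesoderm count and measured 0.689, 2.31, 1.5 and 1.94 CPM in WT HPCs, at least 21.4-fold higher (adjusted p = 0.001). Trim58 (chr11:58453966-58465906, plus strand), which acts in enucleation, also had no mesoderm count and measured 1.12, 1.09, 0.280 and 1.01 CPM, at least 12-fold higher (adjusted p = 0.0028). Neither gene overlapped between stages, and HPC clone C6.1 was low for Trim58. Xpo7, a nuclear exporter used in red cell maturation, measured 13.4, 13.1 and 13.4 CPM in WT mesoderm and 10.6, 9.97, 12.1 and 12.1 CPM in WT HPCs. Its HPC libraries were all lower, by a log2 fold change of -0.19 ± 0.17 that did not pass the test (adjusted p = 0.45).

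Per kb of gene span, which includes introns, the order in WT HPCs began with Tfrc at 1.29 CPM per kb, Slc4a1 at 0.774, Epb41 at 0.611 and Cpox at 0.586 CPM per kb. Fech at 0.487, Car2 at 0.486 and Sptb at 0.467 CPM per kb followed closely. The WT HPC libraries ran from 7.16 to 18.7 CPM for Slc4a1 and from 2.87 to 9.48 CPM for Cpox. Neighboring places in this order are thus not resolved. The order ended with Rhd at 0.01, Car1 at 0.00156 and Tspo2 at 0 CPM per kb. Over the 12 HPC libraries of all genotypes, the widest spread among members counted in every library was that of Trim10, 17.0-fold (0.195 to 3.30 CPM), whose lowest library held 1 count. Slc4a1, with at least 33 counts in every HPC library, spread 9.81-fold (3.15 to 30.9 CPM), or 7.54-fold without D2.1.

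The first step, from undifferentiated cells to mesoderm, moved the members both ways. Of 32 tested, 6 rose (Epb42, Add2, Tmod1, Epb41, Gypc and Nfe2), where 10.7% of all genes did, and 4 fell (Dmtn, Slc25a38, Tfrc and Car2), where 13.7% did. The 6 that rose encode 4 skeleton proteins, a glycophorin and a transcription factor, and 22 members were not called. At an unadjusted edgeR p under 0.05 there were 11 members (34.4%), where 39.8% of all genes had such a p. The share of members that moved was thus not above the background. The undifferentiated libraries are replicates of 1 culture, and of the libraries used here the methods name ribosomal RNA depletion for them alone, while the labels list the depletion kit for every poly(A)-minus sample. If the preparation did differ, it cannot be told apart from the stage. Tfrc measured 17.8 and 17.5 CPM in WT_Undiff and fell by 1.63 on the log2 scale (SE 0.311, edgeR adjusted p = 0.0032) before it rose in HPCs. Car2 fell from 3.94 and 4.08 CPM (log2 fold change -1.71 ± 0.367, adjusted p = 0.006), Dmtn from 4.11 and 5.71 CPM (-4.01 ± 0.554, adjusted p = 0.00053) and Slc25a38 from 0.901 and 0.774 CPM (-1.57 ± 0.42, adjusted p = 0.018). All 4 had groups apart at this step. The call of Slc25a38 was lost without either WT_Undiff library (adjusted p = 0.12 and 0.079), without mesoderm clone B9.3 (0.064) and in a fit of all 23 libraries (0.069).

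Gypc rose from 0.00593 and 0.0530 CPM (log2 fold change 5.09 ± 0.579, edgeR adjusted p = 0.00019), Tmod1 from 0.0237 and 0 CPM (5.26 ± 0.826, adjusted p = 0.001) and Epb41 from 4.81 and 3.98 CPM (1.48 ± 0.271, adjusted p = 0.0025). Epb42 had no count in WT_Undiff and was at least 8.49-fold higher in mesoderm, on 4 counts. In each of these 4 genes the mesoderm libraries were all above the undifferentiated ones. For Add2 and Nfe2 the groups overlapped and 1 library carried the call. Add2 (log2 fold change 3.02, adjusted p = 0.03) measured 1.13 CPM in mesoderm clone B9.3 against 0.121 and 0.0616 CPM in the others, and without B9.3 its log2 fold change was 0.52 (adjusted p = 0.82). That library also had the highest endothelial marker sum of the WT mesoderm libraries, at 140 CPM against 29.8 and 29.9 CPM, and the part of this in the result was not tested. Nfe2 (count ratio 15.9, 95% Poisson interval 2.61 to 167, adjusted p = 0.045) was counted in clone C8.1 alone, and without it its log2 fold change was -1.77 (adjusted p = 0.72).

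The members also rose in the clones that lack either CTCF site. The comparison asks whether deletion of a CTCF site near a Runx1 promoter alters the change from mesoderm to HPCs. From P1-CTCF-KO mesoderm to HPCs, 27 of 31 tested members rose and 0 fell, where 16.6% of the 9170 genes tested rose and 16.1% fell. In P2-CTCF-KO, 30 of 31 rose and 0 fell, where 16.5% rose and 11.7% fell. Xpo7 was not called in either, and Dmtn, Alad and Slc25a38 were not called in P1-CTCF-KO. The median log2 fold change was 4.28 in P1-CTCF-KO, or 3.85 with the 5 genes at 0 in mesoderm at their bound, and 4.74 in P2-CTCF-KO, or 4.07 with 10 such genes at their bound. Genes at 0 in mesoderm could only rise in these lines too, and those at a few counts had little room to fall. Without HPC library D2.1 the count in P2-CTCF-KO was also 30, and with the clone as a replicate block the call of Ppox in P1-CTCF-KO was lost.

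**Figure D2:**
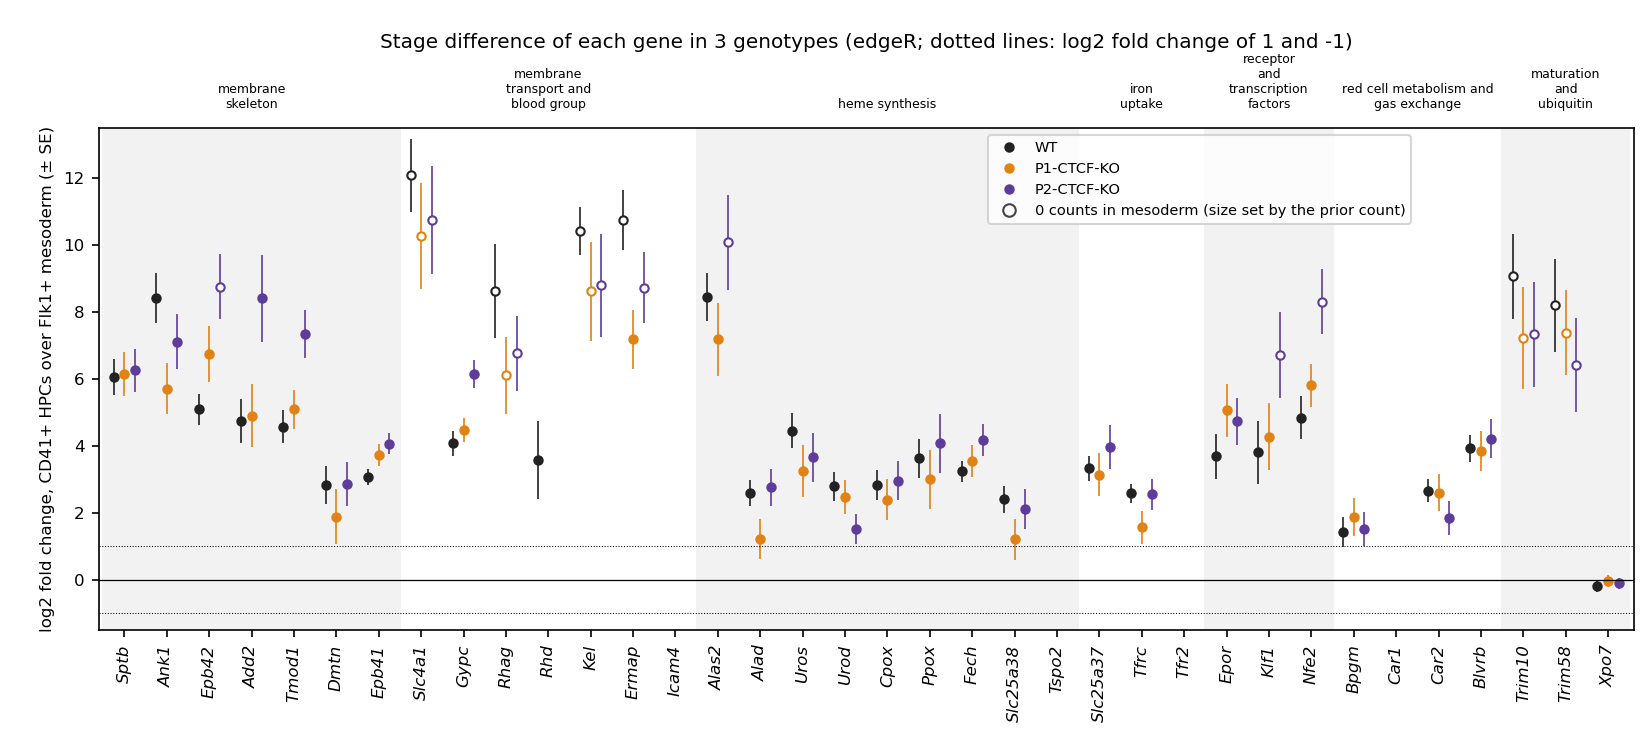
Log2 fold change from Flk1+ mesoderm to CD41+ HPCs for each gene in WT (black), P1-CTCF-KO (orange) and P2-CTCF-KO (purple) cells, by role, with bars for the standard error; open circles mark genes with 0 counts in mesoderm, whose size is set by the prior count of the fit. The circles lie above the upper dotted line, a log2 fold change of 1, for all genes drawn except Xpo7, which is between -0.19 and -0.04; genes without a circle were not tested.

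Epb41 rose to 167, 112 and 114 CPM in P1-CTCF-KO HPCs (E7.1, E7.2, then E9.1; log2 fold change 3.72 ± 0.322, edgeR adjusted p = 4.6e-07) and to 152, 95, 50.4, 77.1 and 88.0 CPM in P2-CTCF-KO HPCs (D10.1, D10.1-2, D2.1, D2.1-2, then E9.1; 4.07 ± 0.318, adjusted p = 9.2e-08). Sptb reached 57.6, 51.7 and 51.8 CPM and 67.6, 62.5, 22.7, 79.9 and 70.0 CPM in the same order (6.14 ± 0.647, adjusted p = 3e-06, and 6.25 ± 0.643, adjusted p = 1.7e-06). For both skeleton genes all HPC libraries lay above all mesoderm libraries of their genotype, and D2.1 was the lowest P2-CTCF-KO library. Gypc reached 16.7, 14.9 and 14.9 CPM and 19.9, 11.8, 7.00, 14.8 and 12.8 CPM (4.48 ± 0.361, adjusted p = 2.4e-07, and 6.14 ± 0.424, adjusted p = 4e-08). Band 3 gene Slc4a1, at 0 in mesoderm of both KO lines, reached 13.4, 18.9 and 4.10 CPM (at least 226-fold) and 8.98, 10.4, 3.15, 30.9 and 29.8 CPM (at least 195-fold). Its HPC libraries were the more uneven, with D2.1 and P1-CTCF-KO clone E9.1 low. In P2-CTCF-KO, Urod, Bpgm and Car2 passed the test although their mesoderm and HPC libraries overlapped.

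The stage change itself was not called different between genotypes for any member. For P1-CTCF-KO minus WT, 0 of 31 members were called and 0% of all genes, and for P2-CTCF-KO minus WT, 0 of 31 and 0.0218% of all genes. At an unadjusted p under 0.05 the edgeR counts were 0 and 5 members (0% and 16.1%), where 3.34% and 7.01% of all genes had such a p, and DESeq2 called 0 members in both. The 5 were Gypc (difference of log2 fold changes 2.09 ± 0.554, adjusted p = 0.29), Tmod1 (2.80 ± 0.975, adjusted p = 0.44), Epb41 (1.04 ± 0.383, adjusted p = 0.48), Epb42 and Nfe2 (adjusted p = 0.67 for both). The WT libraries enter both differences.

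Within mesoderm the 10 members high enough to test did not pass between genotypes. P1-CTCF-KO against WT had 0 members called and 0% of all genes, P2-CTCF-KO against WT 0 members and 0.0342%, and P2-CTCF-KO against P1-CTCF-KO 0 members and 0%. Against WT, 3 of the 10 P2-CTCF-KO members (Epb41, Gypc and Fech) had an unadjusted p under 0.05, where 16% of all genes did. Epb41 measured 5.08, 5.92 and 6.25 CPM in P2-CTCF-KO mesoderm (D10.1, D2.1 and E9.1), against 12.8, 8.96 and 12.8 CPM in WT and 10.8, 8.94 and 11.9 CPM in P1-CTCF-KO (E7.1, E7.2 and E9.1). The 3 P2-CTCF-KO libraries lay under all the others. The log2 fold change against WT was -1.0 ± 0.194 (edgeR adjusted p = 0.1) and against P1-CTCF-KO -0.84 ± 0.193 (adjusted p = 0.22), and P2-CTCF-KO libraries are shared by both comparisons. DESeq2 called Epb41 lower than WT (log2 fold change -1.02, adjusted p = 0.0063), and so did edgeR without WT clone C6.1 (-1.12, adjusted p = 0.029).

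Gypc measured 0.141, 0.194 and 0.226 CPM in P2-CTCF-KO mesoderm, 7 counts in all, against 0.606 to 1.13 CPM in WT and 1.14, 0.473 and 0.607 CPM in P1-CTCF-KO. Again the P2-CTCF-KO libraries were the lowest 3, with a log2 fold change of -2.16 ± 0.534 (adjusted p = 0.14) against WT and -1.89 ± 0.533 (adjusted p = 0.24) against P1-CTCF-KO. Gypc was called against WT in the edgeR fit of genes with any count (log2 fold change -2.18, adjusted p = 0.038), as was Epb41. Fech measured 0.847, 0.679 and 1.13 CPM in P2-CTCF-KO mesoderm, all under the 1.42 to 2.30 CPM of WT (log2 fold change -0.95 ± 0.345, adjusted p = 0.22). Car2 was the least even, at 0.565, 5.14 and 1.66 CPM in the P2-CTCF-KO clones. The same P2-CTCF-KO libraries had a progenitor marker sum of 4.31 to 9.33 CPM against 18.8 to 29.5 CPM in the other mesoderm libraries and an early mesoderm marker sum of 81.2 to 116 CPM against 28.3 to 53.6 CPM. Their endothelial marker sum was 25.6 to 31.6 CPM against 29.8 to 140 CPM, with a median log2 fold change of -5.43 against WT over 8 tested markers, and the 2 tested megakaryocyte markers had a median of -4.12, with 0 markers of either list called. The part of these lists in the result was not tested.

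In HPCs no member was called between genotypes either. The comparisons P1-CTCF-KO against WT, P2-CTCF-KO against WT and P2-CTCF-KO against P1-CTCF-KO each had 0 of 31 members called and 0% of 7422 genes. At an unadjusted p under 0.05 there were 0, 0 and 3 members, and DESeq2 called 0 in each. The 3 are 9.68% of the 31, where 8.76% of all genes had such a p, so this share is near the background. They were Dmtn (log2 fold change 1.89, adjusted p = 0.53), Alad (1.43, adjusted p = 0.53) and Nfe2 (-0.78, adjusted p = 0.53), all with overlapping libraries. Alas2 shows the overlap: P1-CTCF-KO HPCs measured 6.22, 16.8 and 3.11 CPM (E7.1, E7.2 and E9.1) and P2-CTCF-KO HPCs 4.15, 15.8, 2.24, 17.1 and 13.6 CPM (D10.1, D10.1-2, D2.1, D2.1-2 and E9.1), around the WT range of 6.03 to 14.2 CPM. Library D2.1 had the lowest summed member level of the 12 HPC libraries, at 165 CPM, and D2.1-2, of the same clone, the highest, at 505 CPM. Without D2.1 the comparisons with P2-CTCF-KO also called 0 members.

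Paired HPC libraries of 1 clone differed in these genes. In the 3 clones with a pair of HPC libraries, 22 of the 31 members with at least 30 counts over the 6 libraries (71.0%) were higher in the second library in all 3 clones and 1 (3.23%), Trim58, was lower, where 19.8% of 9059 genes were higher and 25.4% lower. The 31 members and this comparison were looked at after the values were seen, no test of it was run, and the members are not independent of each other. Library D2.1 enters the comparison, and no count without it was made. Alas2 went from 6.03 to 14.2 CPM in B9.3, from 2.24 to 17.1 CPM in D2.1 and from 4.15 to 15.8 CPM in D10.1. Slc4a1 went from 7.92 to 18.7, from 3.15 to 30.9 and from 8.98 to 10.4 CPM. Epb41 did not follow, with 81.3 and 73.1, 50.4 and 77.1, and 152 and 95 CPM, and neither did Gypc at 15.1 and 13.0, 7.00 and 14.8, and 19.9 and 11.8 CPM. Trim58 went the other way, from 1.12 to 1.09, from 0.420 to 0.198 and from 2.32 to 0.557 CPM. The summed globin level moved with the heme genes, from 55.4 to 135, 25.7 to 145 and 77.0 to 173 CPM, and the megakaryocyte marker sum went from 504 to 155, 100 to 73.8 and 699 to 112 CPM. Their part in these differences was not tested.

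**Figure D3:**
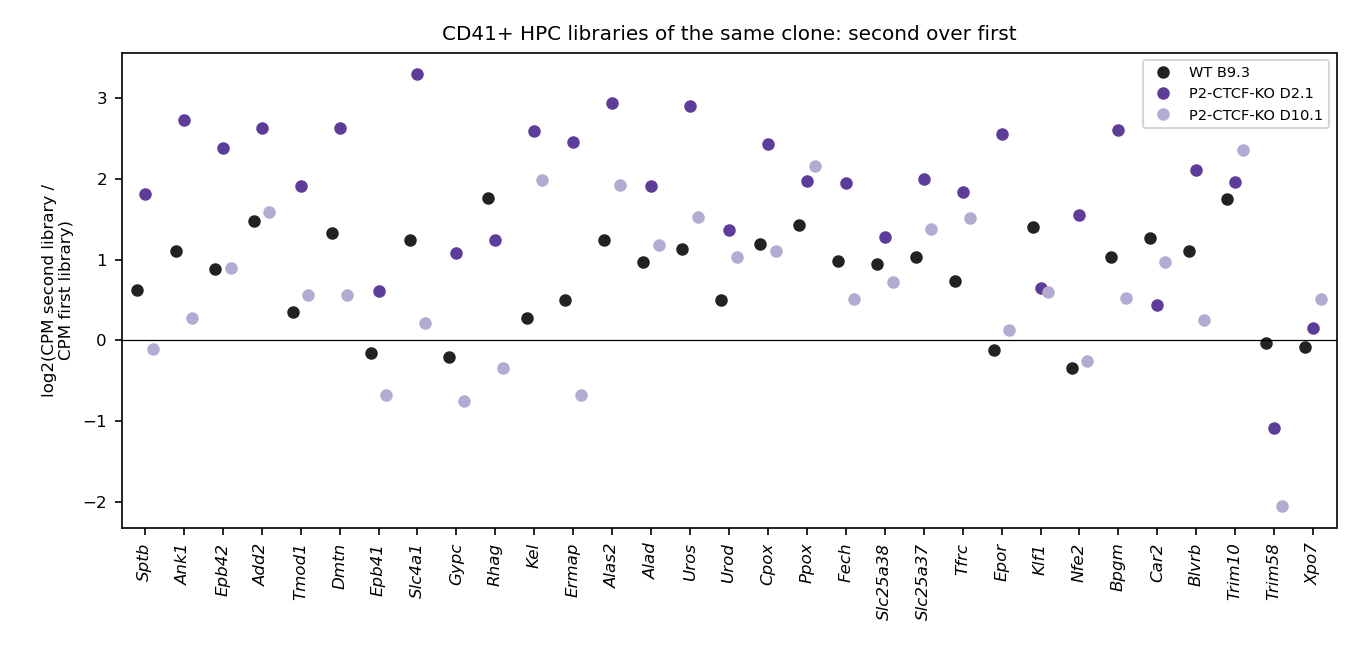
Log2 ratio of the second to the first HPC library of WT clone B9.3 (black), P2-CTCF-KO clone D2.1 (dark purple) and P2-CTCF-KO clone D10.1 (light purple), for the 31 genes with at least 30 counts over the 6 libraries. Most heme and iron genes lie above 0 in all 3 clones, Trim58 lies at or under 0 in all 3, and Epb41 and Gypc lie on both sides.

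Other genes of the same pathways were read beside the members, as whole lists. Of 20 heme partners, 19 were tested, 8 rose and 1 fell from WT mesoderm to WT HPCs (median log2 fold change 1.14). Tmem14c, a porphyrin transporter, rose with a log2 fold change of 3.59 ± 0.382 (edgeR adjusted p = 5.9e-05). Hmox1, heme oxygenase 1, which breaks heme down, fell by 4.86 on the log2 scale (SE 0.798, adjusted p = 0.00099), with mesoderm at 0.767 ± 0.249 CPM and HPCs at 0.0234 ± 0.0467 CPM, a single count. Alas1, the housekeeping counterpart of Alas2, was at 0.805 ± 0.233 and 0.510 ± 0.337 CPM and was not called (adjusted p = 0.41).

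Of 16 iron partners, 12 were tested, 2 rose and 2 fell (median 0.223): Steap3, the reductase of transferrin endosomes (log2 fold change 5.19), and Ncoa4, which delivers ferritin for breakdown (2.64), rose, and Heph (-2.07) and Slc39a14 (-2.0) fell. Of 19 membrane partners, 16 were tested, 9 rose and 1 fell (median 1.23). Stom, stomatin, an integral membrane protein of red cells, rose by 4.79 on the log2 scale and Cd47, the signal on red cells that restrains phagocytosis, by 3.55. Of 22 erythroid regulators, 21 were tested, 11 rose and 0 fell (median 1.02), with Gata1 at 6.15 and Gfi1b at 5.0 on the log2 scale. The 6 tested globins all rose, with Hba-x at 53.6 ± 24.2 CPM and Hbb-bh1, both embryonic globins, at 37.3 ± 10.6 CPM in HPCs. No gene of these lists was called between genotypes.

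The HPC libraries also held megakaryocyte RNA, which shares some regulators with the erythroid line. From WT mesoderm to WT HPCs all 12 megakaryocyte markers rose, from a sum of 0.606 to 3.94 CPM in WT mesoderm to 155 to 504 CPM in WT HPCs. Of the 7 tested endothelial markers (11 in the list) 3 fell and 0 rose, all 6 tested mesoderm markers (9 in the list) fell, and 2 of 3 tested of the 12 myeloid and 0 of 1 tested of the 7 mast cell markers were higher. Of the other lists, 1 of 7 tested cardiac and smooth muscle markers was higher and 3 lower, 4 of 7 progenitor markers were higher and 2 of 7 pluripotency markers lower. In P2-CTCF-KO the endothelial markers went the other way, with 6 of 8 tested higher in HPCs and 1 lower, and in P1-CTCF-KO 0 of 8 were higher and 1 lower. The P2-CTCF-KO counts were not made without D2.1. The endothelial sum of the P2-CTCF-KO HPCs was 38.3, 20.7, 88.4, 13.8 and 20.4 CPM (D10.1, D10.1-2, D2.1, D2.1-2, then E9.1). In P2-CTCF-KO mesoderm it was 25.6 to 31.6 CPM, so only D10.1 and D2.1 were higher. The part of these lists in the rise of the 36 genes was not tested in any genotype.

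More broadly expressed relatives of the erythroid genes did not rise as a group. Of 31 relatives, 28 were tested, 5 rose and 11 fell, with a median log2 fold change of -0.71. Among ankyrins, Ank2 fell by 3.89 on the log2 scale while Ank3 rose by 4.05, to 69.3 ± 23.6 CPM. Tmod2 fell by 4.12 while the member Tmod1 rose by 4.57, and Add1 and Add3, sisters of Add2, rose by 1.18 and 1.40. The carbonic anhydrases Car4 (-4.37), Car8 (-3.77) and Car13 (-2.07) fell while Car2 rose by 2.66. A difference between members and relatives was not tested.

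**Figure D4:**
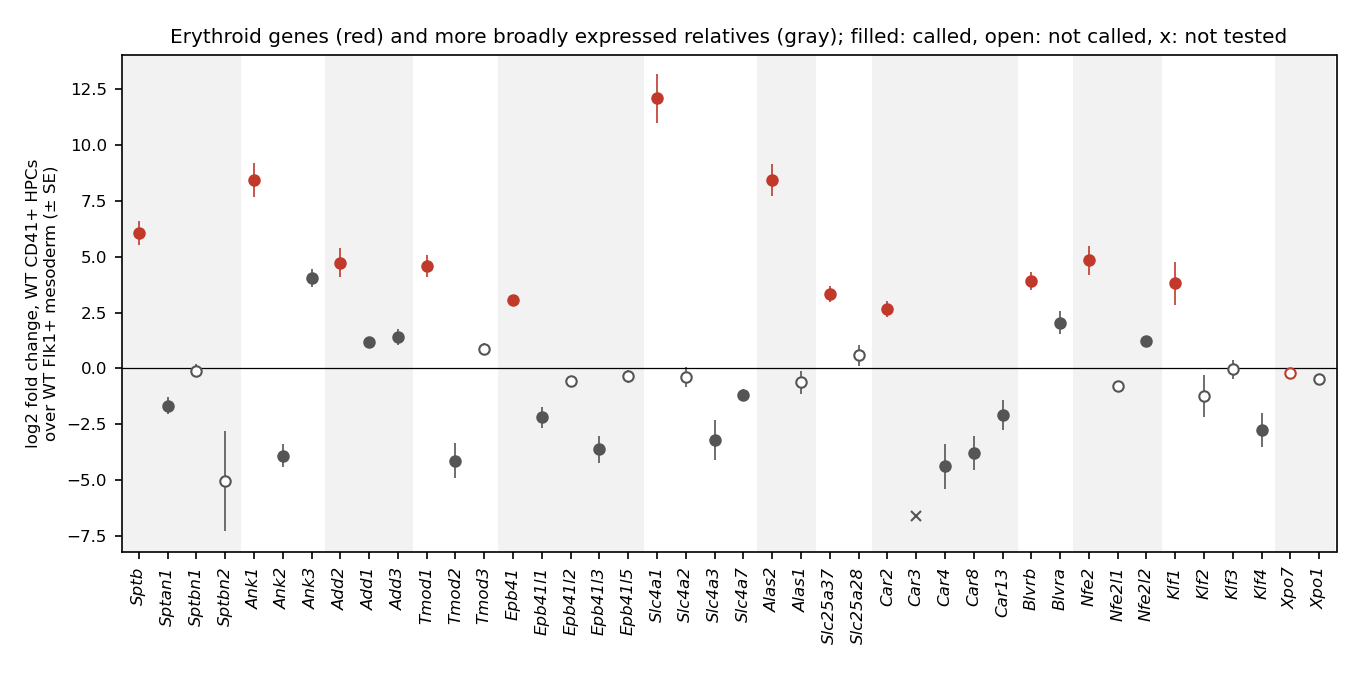
Log2 fold change from WT mesoderm to WT HPCs for 13 of the genes (red) and their more broadly expressed relatives (gray), in alternating shaded families, with bars for the standard error; filled circles passed the call rule, open circles did not and a cross marks a relative that was not tested. The red circles lie above their gray relatives in most families, Ank3 lies at 4.05 and Slc4a1, with 0 mesoderm counts, has a size set by the prior count.

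Open chromatin at the members was read from ATAC-seq, which maps accessible DNA. The peak lists merged 4 WT mesoderm and 2 WT HPC libraries, so they carry no replicate spread, and by the methods they came from a reporter line of E14-TG2a with Venus at Runx1 and an mCherry enhancer transgene in Col1a1. They hold 76766 mesoderm and 29037 HPC peaks with median widths of 114 and 113 bp. A mesoderm peak lay within 1 kb of the start site of 23 of 36 members (63.9%) against 55.1% of 25011 genes, and an HPC peak of 20 (55.6%) against 37.0%. Peaks in both lists marked 18 members (50.0%, against 36% of genes), mesoderm alone 5 (Ank1, Add2, Icam4, Slc25a38 and Tfr2; 13.9% against 19.1%), HPC alone 2 (Ermap and Trim58; 5.56% against 1.01%) and neither 11 (30.6% against 43.9%). No set was tested, and the longer mesoderm list reaches more genes of every kind.

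**Figure D5:**
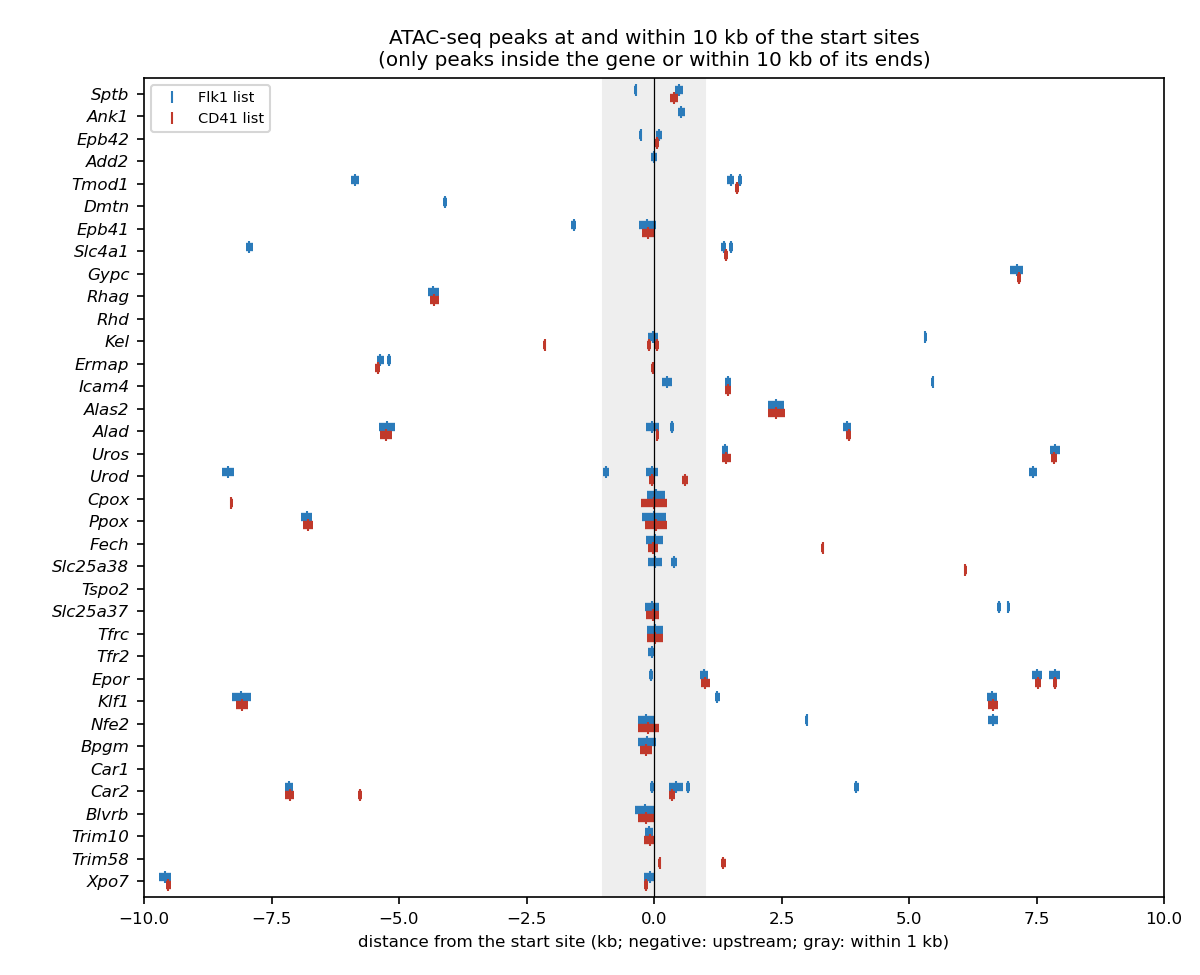
ATAC-seq peaks of the mesoderm (blue) and HPC (red) lists by distance from each gene's start site in kb, upstream to the left, with the 1 kb window in gray; peaks are drawn only inside the gene or within 10 kb of its ends. Peaks of both lists sit at the start of 18 genes, including Epb41, Cpox and Tfrc, an HPC peak alone sits at Ermap and Trim58, and those of Alas2 lie over 2 kb downstream.

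Within 10 kb of the gene span, 34 members (94.4%, against 82.7% of genes) had a mesoderm peak and 30 (83.3%, against 59.7%) an HPC peak, so most of the 11 without a peak at the start had one farther off. The nearest peak of both lists was 2231 bp from the start of Alas2, inside the gene, 1322 and 1381 bp from that of Slc4a1 and 6990 and 7115 bp from that of Gypc. Of the 6 tested genes at 0 in WT mesoderm RNA, Kel and Trim10 already had a mesoderm peak within 1 kb, Ermap and Trim58 had an HPC peak alone, and Slc4a1 and Rhag had neither. Of the untested genes at 0 there, Icam4 had a mesoderm peak alone, and Car1 and Tspo2 had neither.

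Beside the promoter letters printed with the members, in mm9, a mesoderm peak at chr4:131631194-131631519 and an HPC peak at chr4:131631213-131631459 both covered the GATA word and the 3 KLF-type words of Epb41. At Kel, the mesoderm peak chr6:41654243-41654436 covered both GATA words, while the HPC peaks chr6:41654234-41654300 and chr6:41654387-41654460 left AGATAA 7 bp and TGATAA 38 bp away. At Ermap, the HPC peak chr4:118862593-118862659 ended 3 bp from the GATA word, and at Sptb the peaks lay outside the promoter shown, at chr12:77810969-77811123 and chr12:77811865-77811928 in mesoderm and chr12:77811054-77811221 in HPCs. In 200-bp windows on peaks in or within 10 kb of the members, a GATA word was held by 50 of 129 mesoderm windows (38.8%, against 33.7% of all windows) and 25 of 64 HPC windows (39.1%, against 26.8%), and a KLF-type word by 42.6% (against 31.7%) and 40.6% (against 34.6%). The windows were added after the data were seen, and the promoters shown were chosen to have an HPC peak within 1 kb of the start. These are counts of letters and say nothing of which protein was bound.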

How the data were processed

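Poly(A)-minus RNA was sequenced in 23 libraries. Per the labels and the methods, the authors aligned reads to mm9 with STAR, removed duplicates and deposited raw counts of reads per gene over exons and introns from featureCounts; gene annotation and strand setting are not given in the sources used here. ATAC-seq peak positions were taken from the deposited merged lists, which the labels tie to Bowtie2 and MACS2. Members and gene lists were chosen with earlier results of these data known. Genes of few counts were removed with filterByExpr (minimum count 10), libraries were scaled by TMM, and groups were compared with edgeR 4.0.16 quasi-likelihood tests in R 4.3.3 with Benjamini-Hochberg adjustment over all genes tested, in 4 fits: WT stages (9 libraries), the mesoderm to HPC change in 3 genotypes (21), mesoderm (9) and HPCs (12). Calls needed an adjusted p under 0.05 with a log2 fold change above 1 or below -1. Scripts were checked on made-up counts. p-values measure the spread between libraries of clones, which for WT_Undiff is technical. The second HPC libraries of 3 clones entered the main fits and the SDs as separate libraries, although they are not independent of the first. Summing the HPC libraries of a clone was 1 of the alternatives. Text values were given for the lowest adjusted p-values per role, at most 3. Overlap of libraries between groups was read for members and not counted over all genes. Clones were followed across stages, so a replicate block was tried; deviations of the same clone's libraries correlated between -0.065 and 0.17 over 9170 genes and 9 clones. Genes with 0 counts in a group were given a bound from 3 counts. DESeq2 1.42.0, other scalings, filters and left-out libraries were alternatives. Columns were mapped for all libraries, Python 3.11.15, pandas 2.3.3, NumPy 2.4.6 and matplotlib 3.10.9 were used, and sequences came from RefSeq. Some genes of the partner lists are counted but not reported here by name.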

Additional observations from a re-analysis of the deposited data

Results flagged for a closer look

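Among 72 groups of 4 or 5 libraries that were checked for a library far from the rest, 5 had one, where chance gives about 1 in 20. Trim58 measured 2.32 CPM in P2-CTCF-KO_CD41 D10.1 against 0.198 to 0.802 CPM in the other libraries of the group, and 0.28 CPM in WT_CD41 C6.1 against 1.01 to 1.12 CPM. Add2 measured 5.42 CPM in WT_CD41 B9.3 against 14.8 to 15.1 CPM. The others rest on a single count each: Icam4 measured 0.122 CPM in WT_CD41 B9.3-2 against 0 in the rest, and Car1 measured 0 CPM there against 0.0843 to 0.0935 CPM.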

How the results depend on the processing

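Counts of called members were within 1.5 times of those given in every comparison and alternative but 2 comparisons. In WT Flk1 against WT Undiff, 10 members became 6 without WT_Undiff replicate 2 and 7 without replicate 1 (6 to 10 over the libraries left out in turn, 8 to 11 otherwise). In P2-CTCF-KO against WT mesoderm, 0 became 1 with DESeq2, 2 with genes of any count kept and 1 without WT_Flk1 replicate C6.1 (0 to 1 over the libraries left out). Left-out libraries gave 28 to 31 members in the WT rise to HPCs, 24 to 27 in P1-CTCF-KO and 28 to 30 in P2-CTCF-KO, and 0 in every other comparison. The other alternatives gave 29 to 31, 26 to 29 and 28 to 31, and with the second HPC library of a clone left out, chosen after the data were seen, 29, 27 and 28. With the clone as a replicate block, the paired counts were 29, 26 and 30. The block changed no call of a tested member beyond Bpgm and Ppox, and Rhd did not pass the count filter in that fit. Of 642 values of named members under alternatives, 616 kept direction and call, 20 lost the call, 4 gained it and 2 turned: Nfe2 in WT Flk1 against WT Undiff (-1.77) and Nfe2 in the P2-CTCF-KO minus WT stage difference (-0.10), both without WT_Flk1 C8.1, where it then has no mesoderm count. Over all genes, P2-CTCF-KO against WT mesoderm called 3 genes, 168 with DESeq2, 431 with any count kept, 18 in a fit of all 23 libraries and 0 to 127 over left-out libraries. P2-CTCF-KO against P1-CTCF-KO mesoderm called 0, 92, 267 and 5, the P2-CTCF-KO minus WT stage difference 2 and 35 with DESeq2, and P2-CTCF-KO against P1-CTCF-KO HPCs 0, or 259 without D10.1. WT Flk1 against WT Undiff called 3147 genes and 1085 or 1088 without a WT_Undiff library, and the share of higher calls was 44.0%, or 57.9% with DESeq2. The cause was not tested. Depth limits the members at 0 counts in mesoderm, whose folds are bounds, and those at 1 to 3 counts, whose ratios have wide intervals, and only 10 of 36 were high enough to test between mesoderm genotypes.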
